A study of Homo sapiens with 12 samples.

Results

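The genes described here encode the enzymes and transporters that move sugar into the cell and break it down: hexose transporters, the enzymes of glycolysis, lactate dehydrogenase and the monocarboxylate transporters, the enzymes that set fructose 2,6-bisphosphate, the pyruvate dehydrogenase kinases, the pentose phosphate enzymes and 4 genes linked to the hypoxia response. They were chosen by name, 40 genes of the 60605 measured, and each of the 40 symbols matched 1 gene. All 40 passed the filter on low counts. RNA was sequenced from SBC5 cells, a human cell line of small cell lung cancer labelled wild type, in 4 groups of 3 libraries. The combination group received olaparib at 1 µM and, 2 hours later, 4 Gy of gamma radiation. The radiation group received the solvent dimethyl sulfoxide and 4 Gy, the olaparib group received 1 µM olaparib without radiation, and the vehicle group received the solvent alone. Olaparib inhibits the DNA repair enzymes PARP1 and PARP2. All cells were grown in serum-supplemented medium and collected 3 days after treatment. The labels do not say whether the 3 libraries of a group came from separate cultures, so the p-values measure the spread between libraries, which may be technical.

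Glycolysis splits glucose into pyruvate through a chain of enzymes in the cytosol. Its preparatory phase spends ATP to phosphorylate and cleave the sugar, its payoff phase returns ATP and NADH, and lactate dehydrogenase then reduces pyruvate to lactate and regenerates the oxidised cofactor. The pentose phosphate pathway branches off after the first phosphorylation and yields NADPH and ribose for nucleotides. Many of these genes are known targets of hypoxia-inducible factor 1 and of MYC, and tumour cells often run glycolysis at a high rate even with oxygen present.

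Libraries held 14300459 to 38804959 estimated counts, of which the mitochondrial ribosomal RNA gene MT-RNR2 took 23.4% to 32.2%. In olaparib 2, olaparib 3 and radiation 3, genes that are silent in most tissues carried counts: the summed level of 377 olfactory receptor genes was 1371, 1420.1 and 844 CPM (counts per 1000000 after scaling) in these 3 libraries, against 393 to 522 CPM in the other 9. The 3 libraries are therefore shown apart, and the comparisons below used 3 combination, 2 radiation, 1 olaparib and 3 vehicle libraries. With 1 olaparib library, its spread was assumed to be that of the other groups. Among subtype markers of small cell lung cancer, YAP1 averaged 90.6 CPM in the combination and 120.3 CPM in vehicle. Of the neuroendocrine markers, SYP averaged 18.1 CPM in the combination and 24.1 CPM in vehicle, NEUROD1 0.741 and 1.89 CPM in these groups, and CHGA and INSM1 were under 1 CPM. Summed markers of leukocytes were 1.4 to 4.1 CPM and those of endothelium 1.24 to 3.54 CPM in the 9 libraries.

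In vehicle cells the payoff phase and lactate formation held the highest levels per transcript length (CPM per kilobase, with the median length of each gene's coding transcripts in GENCODE 29). ENO1 (enolase 1) had a median of 519 over the 3 vehicle libraries, GAPDH (glyceraldehyde-3-phosphate dehydrogenase) 495 and LDHA (lactate dehydrogenase A) 460.4 CPM per kilobase. The ranges of ENO1 (474 to 531) and GAPDH (421 to 554) overlapped, as did those of GAPDH and LDHA (458 to 464). PKM (pyruvate kinase M) followed at 230.2 and ALDOA (aldolase A) at 214 CPM per kilobase, and their ranges overlapped too. Among hexose transporters, SLC2A3 (GLUT3) had 58.2 CPM per kilobase, SLC2A1 (GLUT1) 12.3 and the fructose transporter SLC2A5 (GLUT5) 1.77. The lowest level of the 40 was that of CA9 (carbonic anhydrase 9), at 0.0212 CPM per kilobase.

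In combination versus vehicle, the contrast that the series design puts first, enzymes from most stages of glycolysis were modestly lower and the fructose transporter SLC2A5 was much lower. Of the 40 members, 13 fell and 0 rose at an adjusted p of 0.05 (edgeR quasi-likelihood test, Benjamini-Hochberg over 30967 genes), while 3.26% of all genes tested were called lower and 1.53% higher. The members that fell were SLC2A5, GPI, PFKL, ALDOC, TPI1, PGK1, PGAM1, ENO1, PKM, LDHA, LDHB, TALDO1 and BNIP3. Genes with high counts are called more often: of the 8351 genes with at least 10 CPM on average, 11.2% were called lower, and of the 33 members above that level 12 were. The median log2 change of these 33 members was -0.21, with 26 of them below 0, against -0.04 for the 8351 genes. At an unadjusted p under 0.05, 18 members were lower and 1 was higher, while 4445 of the 30967 genes passed in either direction. The combination libraries lay wholly below the vehicle libraries for 15 members and wholly above for 2, while groups did not overlap, in either direction, for 19.5% of all genes. For overlap between groups and for the unadjusted p, shares among genes above 10 CPM were not computed, here or in the comparisons below.

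**Figure D1:**
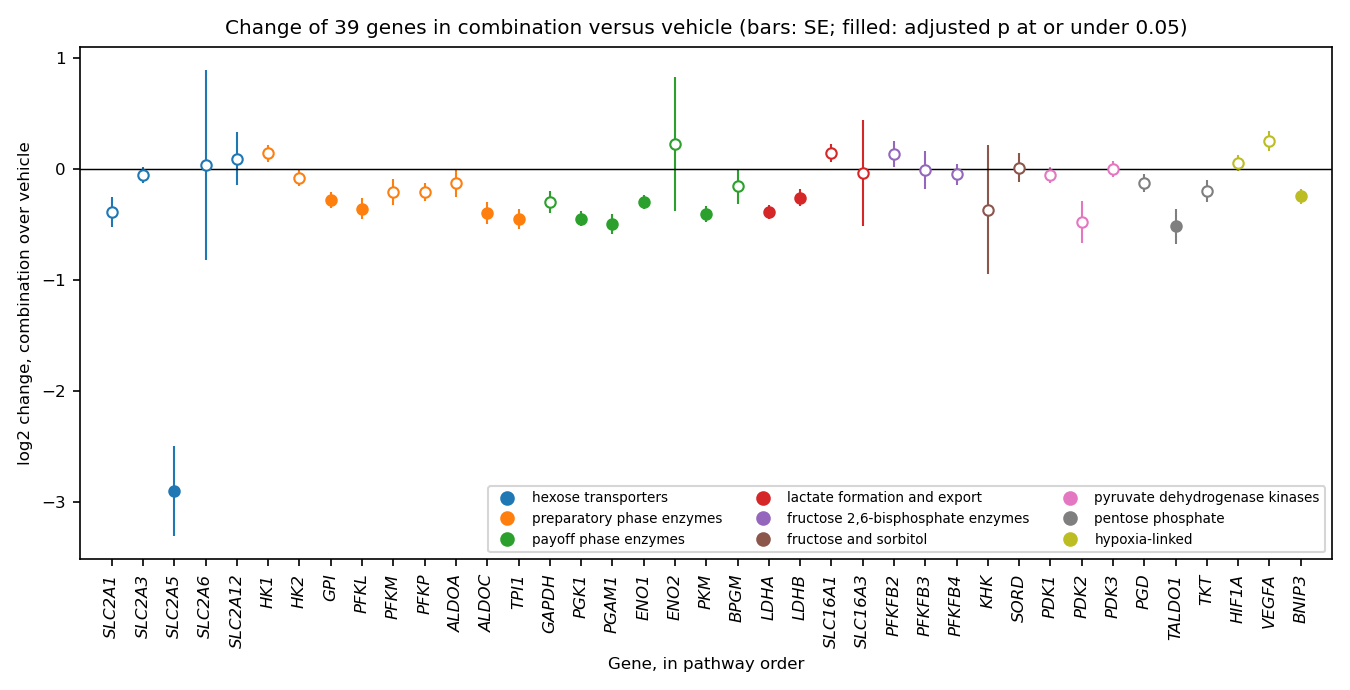
Log2 change (combination over vehicle, vertical axis) of 39 genes in pathway order, with bars for the SE; filled points had an adjusted p at or under 0.05, colours mark the pathway step, and CA9 is left out because its counts were at or near 0. The filled points all lie below 0, most between -0.52 and -0.25, and SLC2A5 stands at -2.90.

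These calls depend on the scale chosen and on which libraries are used. With library size over protein-coding genes in place of TMM scaling, the median of all genes moved to 0.10, and 7 members were lower and 2 higher (HK1 and VEGFA). With the total count as library size the median moved to 0.22, and 5 members were lower and 4 higher (HK1, SLC16A1, HIF1A and VEGFA). SLC2A5, PGK1, PGAM1, PKM and LDHA were lower under each of these scalings. With all 12 libraries in the fit, edgeR called 0 members and only 1 gene of all tested (1262 genes had an unadjusted p under 0.05).

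Among the hexose transporters, SLC2A5 (ENSG00000142583), the facilitative transporter with a preference for fructose over glucose, had the largest change of the members called. It had 0.877, 1.17 and 0.238 CPM in the combination libraries, 2.93 and 6.35 CPM in radiation 1 and 2, 0.867 CPM in olaparib 1, and 5.76, 7.03 and 4.39 CPM in the vehicle libraries. The combination and olaparib 1 were low, every vehicle library was high, and radiation lay between and overlapped vehicle. These levels rest on 18, 26 and 5 counts in the combination, 88 and 173 in radiation, 33 in olaparib 1, and 147, 222 and 137 in vehicle. Combination cells averaged 0.76 ± 0.475 CPM and vehicle cells 5.73 ± 1.32 CPM (SD, n = 3 each), a log2 change of -2.90 (SE 0.406, adjusted p = 1.28e-06). Without combination 3, the library with 5 counts, the change was -2.49. In a bulk lysate, a lower level per cell and fewer cells with a high level cannot be told apart.

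For SLC2A5 the comparisons with and among the single treatments rest on few libraries. Radiation was not distinguishable from vehicle (log2 -0.30, SE 0.395, adjusted p = 0.9). The combination was lower than radiation by a log2 change of -2.60 (SE 0.43, adjusted p = 0.000331), or -1.96 without radiation 2 and -3.05 without radiation 1, and this call was lost in limma-voom (adjusted p = 0.106). Olaparib 1 alone stood at -2.72 against vehicle (SE 0.606), which did not pass over all genes (adjusted p = 0.0687) but passed in 8 of 19 alternatives (adjusted p = 0.00299 to 0.0457), and the combination differed from it by -0.18 (SE 0.571, adjusted p = 0.984). The olaparib libraries set apart for high background went the other way: on a scale common to all 12 libraries SLC2A5 had 11.3 CPM in olaparib 2 and 9.86 CPM in olaparib 3, against 0.948 CPM in olaparib 1 and 4.79 to 7.67 CPM in vehicle. With all 12 libraries the log2 change of olaparib over vehicle was 0.23 (adjusted p = 0.817). With the olfactory receptor sum added to that fit as a covariate, SLC2A5 was lower in olaparib than in vehicle. The 3 olaparib libraries thus lay on both sides of vehicle.

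The gene lies on chromosome 1 between SLC2A7, a related transporter, and GPR157, an orphan receptor, with H6PD and ENO1 further out on either side in RefSeq order. Expression of GPR157 gave a log2 change of -0.13 in combination versus vehicle (SE 0.262, adjusted p = 0.926), and SLC2A7 was too low to test. H6PD, which makes NADPH in the endoplasmic reticulum, fell by 0.53 on the log2 scale (SE 0.0844, adjusted p = 3.70e-06). SLC2A3, the most abundant transporter of the list, averaged 214 ± 18.6 CPM in the combination and 223 ± 9.45 CPM in vehicle (log2 -0.06, SE 0.071, adjusted p = 0.83). SLC2A1, SLC2A6 and SLC2A12 had log2 changes of -0.39 to 0.09 and did not pass.

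In the preparatory phase, 4 of 9 members fell and 0 rose. Those that fell sit after the first phosphorylation, as do all of the 9 but HK1 and HK2. TPI1 (triosephosphate isomerase), which interconverts the 2 triose phosphates, had 79.9, 94.5 and 78.3 CPM in the combination libraries, 106 and 89.7 in radiation, 128 in olaparib 1, and 107, 105 and 133 CPM in vehicle. All combination libraries lay below all vehicle libraries, and radiation overlapped both. The log2 change over vehicle was -0.45 (SE 0.0909, adjusted p = 0.00108). ALDOC (aldolase C), 1 of the enzymes that cleave fructose 1,6-bisphosphate, averaged 41.9 ± 4.73 CPM in the combination and 55.3 ± 6.84 CPM in vehicle (log2 -0.40, SE 0.102, adjusted p = 0.00813). PFKL, the liver-type subunit of phosphofructokinase, averaged 42.8 ± 3.18 CPM in the combination and 54.8 ± 5.96 CPM in vehicle (log2 -0.36, SE 0.0974, adjusted p = 0.0142). GPI (glucose-6-phosphate isomerase) averaged 233 ± 18.4 CPM in the combination and 284 ± 28 CPM in vehicle (log2 -0.28, SE 0.0719, adjusted p = 0.00708). The calls of GPI, PFKL and ALDOC were lost with library size over protein-coding genes (adjusted p = 0.0851, 0.0917 and 0.0521), and without combination 3 or vehicle 3 (adjusted p = 0.0764 to 0.177).

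Neither gene of hexokinase, the entry enzyme, was called. HK1 had 179, 181 and 179.9 CPM in the combination libraries, 172 and 139 in radiation, 155 in olaparib 1, and 155, 157 and 179 CPM in vehicle. The combination libraries were level with the highest vehicle library, and the log2 change was 0.14 (SE 0.0759, adjusted p = 0.426), or 0.23 (adjusted p = 0.0398) with library size over protein-coding genes. HK2, the inducible hexokinase, averaged 189.9 ± 3.99 CPM in the combination and 200.4 ± 3.13 CPM in vehicle (log2 -0.08, SE 0.0723, adjusted p = 0.758). Its log2 change was 0.12 with the total count and 0.01 with protein-coding genes as library size. ALDOA, the most abundant preparatory member, had a log2 change of -0.13 (SE 0.125, adjusted p = 0.784), or 0.07 with the total count as library size, and the phosphofructokinase subunits PFKM and PFKP both stood at -0.21 without passing.

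The payoff phase held the largest share of members that fell, 4 of 7. PGK1 (phosphoglycerate kinase 1, ENSG00000102144), the first step that makes ATP, had 259.9, 264 and 279.6 CPM in the combination libraries, 342 and 328 in radiation, 395 in olaparib 1, and 350.2, 350.1 and 399 CPM in vehicle. The 3 combination libraries were the lowest of the 9 and did not overlap any other group. Against vehicle the log2 change was -0.45 (SE 0.0675, adjusted p = 8.54e-07). PGAM1 (phosphoglycerate mutase 1) had 66, 72.9 and 67.7 CPM in the combination libraries, 82.5 and 65.3 in radiation, 102 in olaparib 1, and 85.8, 101 and 105 CPM in vehicle. Combination and vehicle did not overlap, while radiation 2 was as low as the combination, and the log2 change of the combination over vehicle was -0.50 (SE 0.0874, adjusted p = 4.29e-05).

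PKM, which makes pyruvate and the last ATP of the chain, had 429, 458 and 397 CPM in the combination libraries, 492 and 465 in radiation, 564 in olaparib 1, and 521, 529 and 652 CPM in vehicle. Every combination library lay below every other library of the 9, and the log2 change over vehicle was -0.41 (SE 0.0718, adjusted p = 0.000136). ENO1, the main enolase, averaged 733 ± 61.4 CPM in the combination and 905 ± 54.4 CPM in vehicle (log2 -0.30, SE 0.0616, adjusted p = 0.000389). GAPDH, which makes the NADH of the payoff phase and often serves as a reference gene, averaged 508 ± 49.7 CPM in the combination and 626 ± 84.7 CPM in vehicle. Its log2 change was -0.30 as well, but the groups overlapped and it did not pass (SE 0.102, adjusted p = 0.155). It passed in 5 of 21 alternatives (adjusted p = 0.000276 to 0.0343): no count filter, limma-voom, the replicate number as a block, and without combination 2 or vehicle 1. ENO2 and BPGM, at 0.22 and -0.16, did not pass either. Summed over the 7 payoff genes, levels were 1923 to 2177 CPM in the combination, 2265 to 2419 in radiation, 2751 in olaparib 1 and 2359 to 2831 CPM in vehicle.

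**Figure D2:**
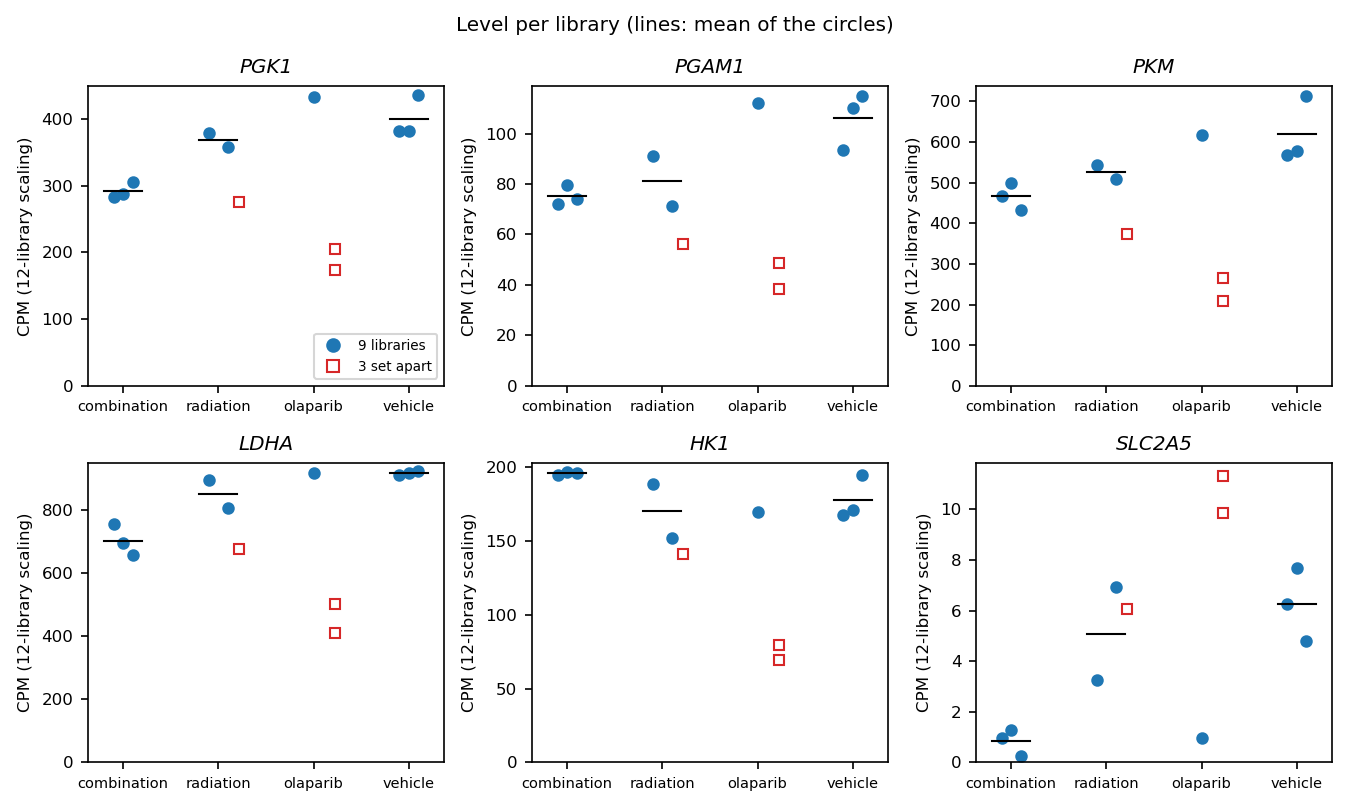
CPM per library (vertical axes start at 0; scaling over all 12 libraries) of 6 genes in the combination, radiation, olaparib and vehicle groups; filled circles are the 9 libraries compared, open squares the 3 set apart, and lines the mean of the circles. The combination circles of PGK1, PGAM1, PKM, LDHA and SLC2A5 lie below the vehicle circles, those of HK1 do not, and the open olaparib squares are low in every panel but SLC2A5.

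Both lactate dehydrogenase genes fell, and the transporters that export lactate did not pass. LDHA, the subunit that favours lactate formation, had 694, 638 and 601 CPM in the combination libraries, 811 and 737 in radiation, 840.1 in olaparib 1, and 837, 841 and 847 CPM in vehicle. The combination libraries were the lowest of the 9, and the vehicle libraries lay within 10 CPM of each other. Its log2 change over vehicle was -0.39 (SE 0.0614, adjusted p = 4.03e-06). LDHB, the subunit that favours pyruvate, averaged 142 ± 4.4 CPM in the combination and 170.3 ± 13.3 CPM in vehicle (log2 -0.26, SE 0.0739, adjusted p = 0.0186), a call lost under both library size scalings and without combination 2, combination 3 or vehicle 3 (adjusted p = 0.066 to 0.204). SLC16A1 (MCT1), the lactate and proton cotransporter, averaged 117 ± 3.46 CPM in the combination and 107 ± 7.69 CPM in vehicle (log2 0.14, SE 0.0785, adjusted p = 0.461). SLC16A3 (MCT4) was between 0.808 and 2.24 CPM in the 9 libraries.

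The regulators of glycolytic flux showed no call against vehicle. PFKFB4, the most abundant of the 3 enzymes that make and remove the phosphofructokinase activator fructose 2,6-bisphosphate, averaged 55.7 ± 0.442 CPM in the combination and 57.6 ± 9.26 CPM in vehicle (log2 -0.05, SE 0.0961, adjusted p = 0.921). PFKFB2 and PFKFB3 stood at 0.13 and -0.01. Of the pyruvate dehydrogenase kinases, which hold pyruvate out of the mitochondrial citric acid cycle, PDK1 averaged 199 ± 12.1 CPM in the combination and 207 ± 13.1 CPM in vehicle (log2 -0.06, SE 0.0716, adjusted p = 0.851). PDK2 stood at -0.48 (adjusted p = 0.143) and PDK3 at 0.00. For fructose handling inside the cell, SORD (sorbitol dehydrogenase, which makes fructose from sorbitol) averaged 24.3 ± 1.82 CPM in the combination and 24.1 ± 3.92 CPM in vehicle (log2 0.01, SE 0.129, adjusted p = 0.994). KHK (ketohexokinase), which phosphorylates fructose, was between 0.6 and 1.72 CPM in the 9 libraries.

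In the pentose phosphate pathway 1 of 3 members fell. TALDO1 (transaldolase), of the non-oxidative branch, had 11.6, 14.7 and 12.8 CPM in the combination libraries, 14.4 and 12.8 in radiation, 16.6 in olaparib 1, and 18.9, 18.7 and 18.3 CPM in vehicle. Vehicle was the highest group, and the treated libraries all lay below it. The log2 change of the combination over vehicle was -0.52 (SE 0.155, adjusted p = 0.033), and it was lost under both library size scalings (adjusted p = 0.102 over protein-coding genes), in limma-voom (adjusted p = 0.0701) and without combination 1, combination 3 or any vehicle library (adjusted p = 0.0737 to 0.184). PGD (6-phosphogluconate dehydrogenase), the second NADPH-forming step, averaged 85.6 ± 2.95 CPM in the combination and 93.5 ± 9.6 CPM in vehicle (log2 -0.13, SE 0.0835, adjusted p = 0.554, and 0.07 with the total count as library size). TKT (transketolase) stood at -0.20 (adjusted p = 0.335).

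Of the 4 hypoxia-linked genes, 1 fell. BNIP3, a mitophagy receptor induced by hypoxia, averaged 297 ± 14 CPM in the combination and 353 ± 20.1 CPM in vehicle (log2 -0.25, SE 0.0668, adjusted p = 0.012), a call lost under both library size scalings and without combination 1, combination 3 or vehicle 3 (adjusted p = 0.0777 to 0.121). VEGFA, the angiogenic growth factor, had 59.8, 64.1 and 58.2 CPM in the combination libraries, 52.4 and 52.8 in radiation, 50.7 in olaparib 1, and 50.1, 50.3 and 52.4 CPM in vehicle. The 3 combination libraries were the highest of the 9, but the log2 change of 0.25 did not pass over all genes (SE 0.0913, adjusted p = 0.106). With library size over protein-coding genes it was 0.34 (adjusted p = 0.00895), and in DESeq2 0.26 (adjusted p = 0.0256). HIF1A, the oxygen-regulated subunit of the factor, averaged 141 ± 5.62 CPM in the combination and 136 ± 6.75 CPM in vehicle (log2 0.05, SE 0.0743, adjusted p = 0.885). CA9, a hypoxia-induced carbonic anhydrase, had 2, 0 and 12 counts in the combination libraries, and 0, 1 and 1 in vehicle. A count of 0 allows up to 3 counts, which was 0.134 CPM in combination 2 and 0.118 CPM in vehicle 1, so a level below that was not detectable.

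Ratios of counts within a library do not depend on any scaling between libraries, and 4 of the 10 computed put the combination apart from all other libraries. PGK1 over HK1 was 1.45, 1.46 and 1.55 in the combination libraries, 2 and 2.36 in radiation 1 and 2, 2.54 in olaparib 1, and 2.26, 2.24 and 2.23 in vehicle. The combination held the 3 lowest values of all 12 libraries, since radiation 3, olaparib 2 and olaparib 3, which are set apart, had 1.94, 2.95 and 2.18. The difference to vehicle was -0.59 on the log2 scale (two-sided exact permutation p = 0.1, the smallest that 3 libraries against 3 allow). LDHA over SLC16A1 was 5.02 to 5.82 in the combination and 6.2 to 8.63 in the other 9 libraries, and PGK1 over HK2 was 1.38 to 1.44 in the combination and 1.52 to 1.96 in the other 9. HK2 over HK1 was 1.03 to 1.08 in the combination and 1.14 to 1.69 in the other 9. Of 10 such ratios, chosen after values of these genes had been seen, 4 put the combination wholly on 1 side of the other 9 libraries and 6 did not, among them LDHB over LDHA, PFKL over PFKP and SLC2A1 over SLC2A3. PGK1 over HK1 is the product of PGK1 over HK2 and HK2 over HK1, so these 3 are not separate results. The share of other gene pairs that set the combination apart was not computed. A ratio shows unequal change of its genes and does not say which of them moved.

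**Figure D3:**
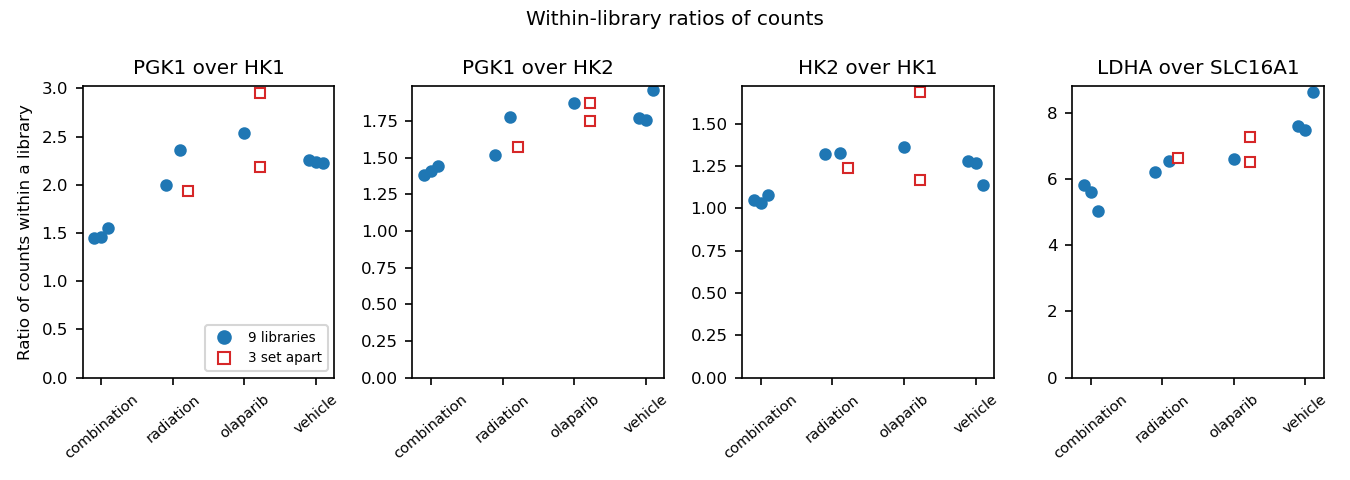
Ratio of the counts of a pair of genes within a library (vertical axes, starting at 0) in the combination, radiation, olaparib and vehicle groups, for PGK1 over HK1, PGK1 over HK2, HK2 over HK1 and LDHA over SLC16A1; filled circles are the 9 libraries compared and open squares the 3 set apart. The combination values are the lowest in each panel. The open squares lie with the other groups or above them, except radiation 3 for PGK1 over HK1, which at 1.94 lies between them and the combination.

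Radiation and olaparib alone, each set against the same vehicle libraries as the combination, gave 2 and 0 calls among these genes. In radiation versus vehicle, 2 of 40 members fell and 0 rose, against 0.678% of all genes called lower and 0.42% higher. Both were among the 33 members above 10 CPM, where 2.13% of genes were called lower. PGAM1 averaged 73.9 ± 12.2 CPM in radiation (SD, n = 2) and 97.4 ± 10.3 CPM in vehicle (SD, n = 3), a log2 change of -0.40 (SE 0.0979, adjusted p = 0.0188). PFKP, the platelet-type phosphofructokinase subunit, averaged 72.5 ± 7.06 CPM in radiation and 93.6 ± 6.21 CPM in vehicle (log2 -0.37, SE 0.0959, adjusted p = 0.0301). Both calls were lost without radiation 2, vehicle 2 or vehicle 3, where 0 members were called, and in limma-voom. With the total count as library size, 2 members were called and both were higher in radiation (SLC2A3 and SLC16A1). Radiation and vehicle did not overlap for 12 members, 8 lower and 4 higher in radiation, against 25.2% of all genes.

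In olaparib versus vehicle, 0 of 40 members were called in either direction, with 0.00969% of all genes called higher and 0.0581% lower. In olaparib 1, 12 of the 33 members above 10 CPM had a log2 change below 0. Their median was 0.07, against 0.02 for the 8351 genes above that level. SLC2A5 stood at -2.72, GPI at -0.23, PGD at -0.31 and SLC16A1 at 0.25. Members that fell in the combination stood above the vehicle mean in that library for PGK1 (395 CPM in olaparib 1 and 367 CPM in vehicle), ENO1 (979 CPM in olaparib 1 and 905 CPM in vehicle) and LDHB (195 CPM in olaparib 1 and 170.3 CPM in vehicle), and likewise for ALDOC, TPI1 and PGAM1. They stood below it for GPI (242 CPM in olaparib 1 and 284 CPM in vehicle), TALDO1 (16.6 CPM in olaparib 1 and 18.6 CPM in vehicle) and PFKL (53.5 CPM in olaparib 1 and 54.8 CPM in vehicle), and likewise for SLC2A5 and BNIP3. PKM was at 564 CPM in olaparib 1 and 567 CPM in vehicle, and LDHA at 840.1 CPM in olaparib 1 and 842 CPM in vehicle.

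Set against each agent alone, every member called was lower in the combination. Against radiation 3 members fell, with 0.426% of all genes called lower and 0.142% higher: SLC2A5, PGK1 and LDHA. PGK1 and LDHA are among the 33 members above 10 CPM, where 1.48% of genes were called lower. PGK1 averaged 268 ± 10.4 CPM in the combination (SD, n = 3) and 335 ± 10.1 CPM in radiation (SD, n = 2), a log2 change of -0.32 (SE 0.0748, adjusted p = 0.0149), lost without combination 1, combination 2 or radiation 1 (adjusted p = 0.0513 to 0.288). LDHA averaged 645 ± 46.7 CPM in the combination and 774 ± 52.1 CPM in radiation (log2 -0.26, SE 0.0681, adjusted p = 0.0438), lost without any of 5 libraries (adjusted p = 0.0772 to 0.633 without combination 2 or 3, radiation 1, olaparib 1 or vehicle 2). Combination and radiation did not overlap for 19 members, 14 of them lower and 5 higher in the combination, against 24.1% of all genes. At an unadjusted p under 0.05, 14 members were lower than in radiation and 2 were higher, HK1 and VEGFA. Of all 30967 genes, 2954 passed in either direction.

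Against olaparib 1, 7 members fell, with 1.54% of all genes called lower, 0.417% called higher and 5.52% of genes above 10 CPM called lower. They were TPI1, PGK1, PGAM1, ENO1, PKM, LDHA and LDHB, which act between the triose phosphates and lactate. TPI1 had the largest change (84.2 ± 8.96 CPM in the combination and 128 CPM in olaparib 1, log2 -0.61, SE 0.124, adjusted p = 0.00264). PGK1 and PGAM1 changed by -0.56 (SE 0.0922, adjusted p = 2.42e-05) and -0.57 (SE 0.119, adjusted p = 0.00158). ENO1, PKM, LDHA and LDHB changed by -0.46 to -0.38. Of the 33 members above 10 CPM, 29 had a log2 change below 0, and VEGFA stood at 0.26. The median of the 33 was -0.26, against -0.06 for the 8351 genes above that level. All 7 members that fell reversed sign in the fit of all 12 libraries, which takes in olaparib 2 and 3. In that fit the median log2 change of all genes was -0.33. With the olfactory receptor sum as a covariate, all 7 were lower in the combination again, but without a call. This comparison has 1 olaparib library and so no replicate check of its own, and it shares the combination libraries with the others.

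**Figure D4:**
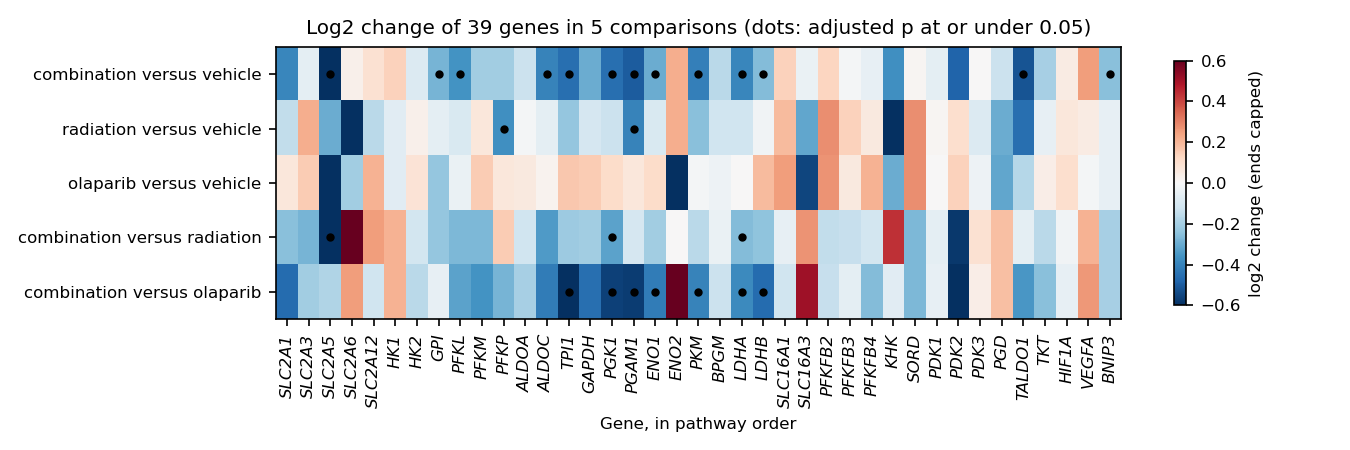
Log2 change of 39 genes (columns, in pathway order) in 5 comparisons (rows), blue for lower and red for higher in the first group named, with the colour scale capped at -0.6 and 0.6; dots mark an adjusted p at or under 0.05. The dotted cells are all blue and most stand in the rows of the combination, from TPI1 to LDHB.

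Of 82 further genes (other transporters, glycolytic isoforms and gluconeogenesis, pyruvate entry, pentose phosphate, hypoxia and glucose sensing), 71 were tested, and 4 fell and 0 rose in combination versus vehicle, where 3.26% of all genes tested were called lower. All 4 averaged above 10 CPM, where 11.2% of genes were called lower. The number of the 71 above that level was not counted, so the 4 calls are not read as an excess over that share. DLAT, the acetyltransferase subunit of pyruvate dehydrogenase, averaged 50.2 ± 1.94 CPM in the combination and 74.5 ± 3.21 CPM in vehicle (log2 -0.57, SE 0.0884, adjusted p = 2.05e-06). H6PD averaged 62.3 ± 5.52 CPM in the combination and 90.1 ± 2.55 CPM in vehicle. It was the 1 gene of these lists called in radiation versus vehicle, where 2.13% of genes above 10 CPM were called lower. Its level in radiation was 59.1 CPM (log2 -0.61, SE 0.0953, adjusted p = 1.22e-05). ARNT, the partner subunit of HIF1A, averaged 239.7 ± 5.45 CPM in the combination and 297 ± 30.7 CPM in vehicle (log2 -0.31, SE 0.07, adjusted p = 0.00202). MYC, a transcription factor with many glycolytic targets, averaged 16.5 ± 1.46 CPM in the combination and 23.2 ± 2.55 CPM in vehicle (log2 -0.49, SE 0.139, adjusted p = 0.02). Among 20 further hypoxia-linked genes, 19 of them tested, the median log2 change was -0.00. ANKRD37, a hypoxia-induced ankyrin repeat protein, was the 1 gene of the 82 called in combination versus radiation. There 0.426% of all genes, and 1.48% of those above 10 CPM, were called lower. ANKRD37 averaged 23.1 ± 5.37 CPM in the combination and 36.5 ± 1.31 CPM in radiation (log2 -0.66, SE 0.137, adjusted p = 0.0057). Vehicle lay between, at 28.3 ± 1.14 CPM. Against vehicle neither the combination (log2 -0.29, SE 0.125, adjusted p = 0.232) nor radiation (log2 0.37, SE 0.136, adjusted p = 0.25) passed.

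In the libraries set apart, most of these genes were low, as were most abundant genes. On the scale of all 12 libraries, 32 of the 40 members were lower in both olaparib 2 and olaparib 3 than in each of the other 9 libraries, 3 were higher and 5 overlapped. Of all genes tested, 24.1% were lower in this way and 31.4% higher. Of the 33 members above 10 CPM 32 were lower, against 77.1% of all genes above that level. SLC2A3, for one, had 102 and 134 CPM in the pair against 211 to 296 CPM in the other 9. The 3 that were higher are the low-abundance transporters SLC2A5, SLC2A6 and SLC16A3. In the 3 libraries set apart, summed markers of leukocytes (9.38 to 16.7 CPM), endothelium (8.98 to 23.5 CPM), fibroblasts (25.7 to 47.1 CPM) and liver and intestine (3.95 to 9.11 CPM) were higher too. In the other 9 libraries these sums were 1.4 to 4.1, 1.24 to 3.54, 16.6 to 22.9 and 0.318 to 1.55 CPM. Their part in the level of these members was not tested.

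Copies in the genome could share reads with several of these enzymes. Annotated pseudogenes and close copies held at most 3.22% of the counts of SLC2A3, 2.79% of PGAM1, 2.53% of BNIP3, 1.96% of TPI1 and 1.11% of GAPDH, and under 0.4% of the others. With the copies added to their parent genes the same 13 members were called in combination versus vehicle. Overlapping antisense genes are annotated for HIF1A, PDK1, SLC16A1 and ENO1, and the strand setting of the counting is not given in the sources used here.

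Promoters are shown for the 3 members that fell against radiation as well, SLC2A5, PGK1 and LDHA, and for PGAM1, which fell in both combination and radiation cells, since hypoxia-inducible factor is known to bind the letters ACGTG or GCGTG at some glycolytic genes. Each sequence is the 250 bases before the RefSeq gene start in GRCh38.p14, 5′ to 3′ on the gene's own strand, and capitals mark ACGTG or GCGTG on either strand. The windows are chr1:9069636-9069885 (minus strand) for SLC2A5, chrX:78103998-78104247 (plus) for PGK1, chr10:97427568-97427817 (plus) for PGAM1 and chr11:18394313-18394562 (plus) for LDHA.
SLC2A5: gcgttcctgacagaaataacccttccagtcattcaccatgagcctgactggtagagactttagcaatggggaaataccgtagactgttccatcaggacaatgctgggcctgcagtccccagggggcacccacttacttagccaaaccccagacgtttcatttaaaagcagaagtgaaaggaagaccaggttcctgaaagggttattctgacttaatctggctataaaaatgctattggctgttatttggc
PGK1: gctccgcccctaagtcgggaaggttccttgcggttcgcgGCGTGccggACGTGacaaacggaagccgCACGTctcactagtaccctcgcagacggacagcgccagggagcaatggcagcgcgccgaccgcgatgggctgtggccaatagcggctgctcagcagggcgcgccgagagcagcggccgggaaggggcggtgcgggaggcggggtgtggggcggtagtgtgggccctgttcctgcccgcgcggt
PGAM1: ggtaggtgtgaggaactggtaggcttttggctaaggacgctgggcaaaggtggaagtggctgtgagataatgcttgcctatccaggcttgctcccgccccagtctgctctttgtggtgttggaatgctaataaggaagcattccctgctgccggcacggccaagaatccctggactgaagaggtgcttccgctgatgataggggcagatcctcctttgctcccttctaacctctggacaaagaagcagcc
LDHA: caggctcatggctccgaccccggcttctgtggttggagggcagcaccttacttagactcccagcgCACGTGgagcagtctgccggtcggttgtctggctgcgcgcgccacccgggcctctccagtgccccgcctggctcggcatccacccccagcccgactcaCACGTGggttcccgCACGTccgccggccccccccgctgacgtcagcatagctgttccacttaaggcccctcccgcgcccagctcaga

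The PGK1 window held 3 matches, and that of LDHA 5, including 2 copies of CACGTG, which reads as ACGTG on both strands and is counted on each. Those of SLC2A5 and PGAM1 held 0. Of the 40 members, 34 had a RefSeq promoter entry, and 19 of these 34 held ACGTG or GCGTG, as did 7 of the 13 members that fell in combination versus vehicle and 43.1% of all 27305 promoters of that length. CACGTG was present in 4 of the 34 and in 6.49% of all promoters. A match describes the letters of the window, and no binding was measured here.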

How the data were processed

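RNA of SBC5 cells was sequenced as stranded total RNA libraries, per the labels' protocols. The values deposited by the authors are estimated counts (expected counts) per gene, made with kallisto 0.46.1 per the submitters' processing notes, which also name DESeq2. Which transcriptome release and build it used is not given in the sources used here. Of the deposited values 68.8% were whole to within 1e-06. The 44 rows for pseudoautosomal Y copies were added to their X counterparts, the counts were rounded, and symbols were found for 60463 of 60605 genes. Depth was 14300459 to 38804959 counts per library. All sample columns were used or shown.

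The fit used R 4.3.3 and edgeR 4.0.16: filterByExpr, TMM scaling, 1 mean per group over 9 libraries, quasi-likelihood F-tests with robust estimation, and p-values adjusted by Benjamini-Hochberg over 30967 genes, with a threshold of 0.05. The SE is the log2 change over the square root of F. Scripts were tested on simulated data. Alternatives were all 12 libraries, with or without the olfactory receptor sum as a covariate, other scalings and filters, DESeq2 1.42.0, limma-voom (limma 3.58.1), a block for the replicate number, only the compared groups, copies added to their parent genes and each library left out. Library size over protein-coding genes, and the compared groups alone where 1 is olaparib, were added after seeing the data. The members and lists were chosen with earlier results of these data known. Named were all members called in any comparison, the most abundant member of each step, 8 members whatever their values (SLC2A5, HK1, HK2, GAPDH, PKM, LDHA, HIF1A and VEGFA), and at most 2 called genes per further list; other members named with a value were chosen after their values were seen.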

Additional observations from a re-analysis of the deposited data

Results flagged for a closer look

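3 low-abundance members carried a signal in the olaparib libraries that the comparisons leave out, above the level in vehicle and in the other libraries, on the scale of all 12. Such a rise was common: 31.4% of all genes tested were wholly higher in olaparib 2 and 3 than in the 9 libraries compared. It is therefore not particular to these members. SLC2A5 had 11.3 CPM in olaparib 2 and 9.86 CPM in olaparib 3, against 0.259 to 7.67 CPM in the 9 libraries compared. SLC2A6, a lysosomal hexose transporter, had 2.44 CPM in olaparib 2 and 1.9 CPM in olaparib 3, against 0.147 to 1.02 CPM in the 9. SLC16A3, the lactate exporter MCT4, had 8.73 CPM in olaparib 2 and 8.13 CPM in olaparib 3, against 0.881 to 2.44 CPM in the 9. In radiation 3, also set apart, the 3 genes had 6.08, 1.75 and 3.04 CPM. The olfactory receptor sum was 1371 and 1420.1 CPM in olaparib 2 and 3, against 393 to 522 CPM in the 9. With that sum as a covariate in the fit of all 12, SLC2A5 was lower in olaparib than in vehicle. Beyond that fit, the part of the background in these levels was not tested.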

How the results depend on the processing

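Over 826 alternative values of 40 single-gene results, 685 were counted as unchanged, 109 kept the direction but lost the call, 20 gained one and 12 reversed. Those counted as unchanged include changes of sign where neither fit made a call and the main change was no larger than its SE. Over fits that left out 1 library, SLC2A5 in radiation versus vehicle ranged from -0.95 to 0.15. In combination versus vehicle PFKFB4 ranged from -0.13 to 0.09 and SORD from -0.12 to 0.1. In combination versus vehicle SLC2A5, PGK1, PGAM1, PKM and LDHA were called lower in every edgeR setting on the 9 libraries; DESeq2 gave SLC2A5 no adjusted p. Without combination 3 or vehicle 3 the count of 13 members was 7, and leaving out 1 library gave 7 to 14 there, 0 to 3 in radiation versus vehicle, 0 to 1 in olaparib versus vehicle, 1 to 5 in combination versus radiation (1 without radiation 1, 5 without radiation 2) and 6 to 9 in combination versus olaparib. All 12 libraries gave 0 members in combination versus vehicle, radiation versus vehicle, combination versus radiation and combination versus olaparib. In that fit only 1, 0, 0 and 3 genes of all tested were called in these comparisons. The olfactory receptor covariate gave 5, 0, 1 and 0 members in the same order. In radiation versus vehicle, the groups alone and limma-voom gave 0, the 1 CPM filter gave 1, and the total count as library size gave 2, both higher (SLC2A3 and SLC16A1). In combination versus radiation, the groups alone, the total count and protein-coding library size gave 1 each and DESeq2 gave 6. In combination versus olaparib the total count gave 4. Olaparib versus vehicle gave 1 (SLC2A5) without a count filter (adjusted p = 0.00299) and with the groups alone (adjusted p = 0.00377), a fit added after seeing the data. The cause of these moves was not tested. Same-numbered libraries did not deviate together (r = -0.0869 to 0.00759), but deviations from means of 2 or 3 libraries cannot exclude a shared culture or batch. With the replicate number as a block, combination versus vehicle gave 14 members, radiation versus vehicle 2 and combination versus radiation 2. Counted as reversed was SLC2A5 in olaparib versus vehicle with all 12 libraries (0.23). So were, in combination versus vehicle, HK2 (0.12 with the total count, 0.01 with protein-coding size), and ALDOA (0.07) and PGD (0.07) with the total count. With all 12 libraries combination versus olaparib gave TPI1 0.15, PGK1 0.11, PGAM1 0.18, ENO1 0.27, PKM 0.36, LDHA 0.21 and LDHB 0.21. With the olfactory receptor covariate these members were lower in the combination, without a call. Without its 1 library, no olaparib comparison could be fitted. Genes near 1 CPM or below (CA9, SLC2A6, ENO2, KHK) had an SE of 0.581 or more, so changes of that size were not detectable in them.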
